A study of Mus musculus with 12 samples.

Results

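Collagen transcripts were measured in 12 polyA+ RNA-seq libraries of striatum from C57BL/6J mice, and the genes were taken by name. A member is a protein-coding gene whose symbol is Col, a number, a and a number, with at least 10 counts in 3 or more of the 12 libraries. Of 44 such genes among the 54532 listed, 43 met the count rule: 11 of 11 fibrillar, 8 of 8 basement membrane and 24 of 25 other collagens. Just inside the rule lay Col28a1 and Col6a6, each with 10 counts or more in 3 libraries and with 82 and 77 counts in total. Just outside lay Col10a1, which reached 10 counts in 2 libraries and had 1486 counts in total.

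The striatum is a forebrain nucleus fed by branches of the middle cerebral artery. In transient middle cerebral artery occlusion (tMCAO), a model of ischaemic stroke, that artery is blocked and then reopened. The 12 libraries formed 4 groups of 3, named by their titles: sham (sham operation with PBS), vehicle (tMCAO with PBS), SN011 (tMCAO with SN-011) and 3d-SN011 (tMCAO with SN-011). SN-011 is a small-molecule antagonist of STING, the adaptor protein of cytosolic DNA sensing. The SN011 and 3d-SN011 groups carry the same treatment label, and the labels do not say what 3d stands for. No sham or vehicle library carries that prefix, so an effect of SN-011 in the 3d-SN011 libraries and whatever 3d stands for cannot be told apart. Neither the animals' age, the dose nor the time of sampling is given in the sources used here. The labels do not say that replicates came from separate mice, so p-values measure the spread between these libraries, which may be technical.

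Collagens are triple helices of 3 polypeptide chains that are wound together in the endoplasmic reticulum, secreted, trimmed and crosslinked. Fibrillar collagens such as types I, III and V build load-bearing fibres, type IV networks with types XV and XVIII form basement membranes around vessels, and the remaining types decorate fibrils, make beaded filaments or sit in the plasma membrane. In the healthy brain the parenchyma holds little fibrillar collagen, vessels are wrapped in type IV basement membrane, and fibroblasts of the meninges and of large vessels are the main source of types I and III. After injury such cells, together with pericytes, can lay down a fibrotic scar.

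Each library held 15806076 to 18622053 counts, and levels are given as CPM, library-size scaled counts with TMM correction. Markers of striatal projection neurons, the labelled tissue, were detected in every library, but their summed level was 304 to 1922 CPM in the 3d-SN011 libraries against 6560 to 7224 CPM in 8 of the others, and 9 of 9 were lower in 3d-SN011 than in vehicle. Summed microglia and macrophage markers were 2446 to 3556 CPM in 3d-SN011 and 267 to 482 CPM in those 8. SN011 replicate 3 stood apart from its group, at 4096 CPM of the projection neuron markers, 1145 CPM of the microglia and macrophage markers, and 5439 CPM of astrocyte markers against 932 to 2327 CPM in the other 8. In bulk tissue, more or fewer cells of a type and more or less RNA per cell cannot be told apart. Across all genes, 28.9% of the 18537 tested were called higher and 28.2% lower in 3d-SN011 than in vehicle, so each count below is read against that background. The part of cell composition in the collagen results was not tested.

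In sham striatum the collagen transcripts summed to 613 ± 46.0 CPM (SD, n = 3). Per kilobase of exon, Col6a1 had the highest mean sham level at 28.5 CPM per kb. It was followed by the network chains Col4a2 at 8.88 and Col4a1 at 7.55 CPM per kb, Col11a2 at 7.84 CPM per kb and Col9a3 at 7.13 CPM per kb. The sham libraries of Col9a3 differed, at 44.6, 25.5 and 12.2 CPM. The chains of the main fibre-forming types were low in sham, with 1.14 CPM per kb for Col1a1, 0.915 for Col1a2 and 0.414 for Col3a1.

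A feature that the choice by name did not use, and that some of the members have, is a match to miR-29 in the 3′ UTR. The miR-29 family is known to repress many collagen mRNAs, and its 3 mouse members share a seed (bases 2 to 8, in capitals), as their RefSeq mature sequences show.
mmu-miR-29a-3p: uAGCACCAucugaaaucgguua
mmu-miR-29b-3p: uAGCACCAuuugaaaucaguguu
mmu-miR-29c-3p: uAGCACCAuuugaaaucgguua

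The DNA letters TGGTGCT, complementary to that seed, were searched on the sense strand of the 3′ UTR of the transcript with the longest coding sequence. They occurred at least 1 time in 24 of the 41 tested collagens (58.5%), against 13.7% of 15014 tested genes with a 3′ UTR. There were 2 or more matches in 26.8% of the collagens and in 2.24% of all genes, and per kilobase of 3′ UTR the density was 0.809 against 0.113 matches. By group, 9 of 11 fibrillar, 7 of 8 basement membrane and 8 of 22 other collagens had a match, while Col1a2 and Col18a1 had none. The first match in 5 collagens is printed with up to 10 flanking bases and the match in capitals, because these genes carry the results that follow. Coordinates are GRCm38 positions of the capitals, which lie in the 3′ UTR.
Col1a1, chr11:94952538-94952544, plus strand: aaggaatttcTGGTGCTatagaagctg
Col3a1, chr1:45348982-45348988, plus strand: aatgtctcaaTGGTGCTataataaata
Col4a1, chr8:11199762-11199768, minus strand: cgtcacaacaTGGTGCTactccccccc
Col4a5, chrX:141688253-141688259, plus strand: ctcccaccaaTGGTGCTaatatcctct
Col5a3, chr9:20770781-20770787, minus strand: atgggctcctTGGTGCTgaggctctga

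A match is a description of the letters and no evidence of repression, and microRNAs were not measured in these libraries.

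Whether occlusion alone changed collagen transcripts was addressed by vehicle against sham. In summed collagen level the vehicle and sham libraries overlapped, at 577, 592 and 719 CPM in vehicle and 657, 617 and 566 CPM in sham. Col4a1, an α chain of the main vessel basement membrane network, read 60.3, 55.2 and 53.6 CPM in sham and 40.1, 39.6 and 48.9 CPM in vehicle. Col1a1, a chain of type I fibres, read 8.25, 6.00 and 8.17 CPM in sham and 7.43, 7.68 and 8.24 CPM in vehicle. The vehicle values of Col4a1 lay below the sham values, and those of Col1a1 lay among them. All vehicle libraries also lay below all sham libraries in Col3a1, Col15a1, Col20a1 and Col26a1, and above them in Col6a1, Col7a1 and Col9a1. None of the 41 tested collagens was called, and at an unadjusted p under 0.05 the count was also 0, against 467 of all genes. DESeq2 also called 0 collagens. Called either way were 0.0% of all genes in edgeR's quasi-likelihood test, and the collagens matched that background. The median log2 difference over the collagens was 0.06, and over all genes 0.01.

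SN-011 after occlusion was compared with vehicle and with sham, and these comparisons share the SN011 libraries. Summed collagen levels in SN011 were 728, 685 and 788 CPM, or 733 ± 51.6 CPM (SD, n = 3), against 629 ± 77.8 CPM in vehicle. The clearest member was Col4a6, an α chain of a type IV network with restricted tissue distribution, at 4.16, 2.92 and 13.5 CPM in SN011. Its vehicle libraries read 1.81, 1.43 and 1.93 CPM and its sham libraries 2.12, 1.70 and 0.968 CPM. All 3 SN011 values lay above all 6 others, and replicate 3 alone held most of the group's sum. The log2 fold change of Col4a6 was 1.99 ± 0.52 (SE) against vehicle and 2.11 ± 0.52 against sham, with adjusted p of 0.177 and 0.107 in edgeR's quasi-likelihood test, so it did not pass.

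Of 41 collagens, 0 were called in SN011 against vehicle, where 0.0162% of all genes were called either way, and 0 in SN011 against sham, where the share was 0.113%. At an unadjusted p under 0.05 there were 7 of 41 collagens against vehicle, where 11.1% of all genes were under it, and 10 of 41 against sham, where 12.8% of all genes were. The median log2 difference over the collagens was 0.23 against vehicle and 0.32 against sham, while over all genes it was -0.01 and 0.00095. Col16a1, a fibril-associated chain, read 31.6, 22.6 and 57.3 CPM in SN011 and 11.6 to 24.2 CPM in vehicle. Col20a1, another fibril-associated chain, read 11.96, 9.30 and 47.9 CPM in SN011 and 8.65 to 10.2 CPM in vehicle. Each of these genes peaked in SN011 replicate 3, the library with higher microglia and astrocyte and lower neuron markers, whose part in these values was not tested. Without that library the log2 fold change against vehicle was 1.04 for Col4a6, 0.65 for Col16a1 and 0.16 for Col20a1, with adjusted p of 0.792, 0.998 and 0.998 in edgeR's quasi-likelihood test. Not every member peaked in that library, as Col1a1, Col1a2 and Col18a1, singled out after their values were seen, did not. They read 13.9, 13.9 and 10.1 CPM, 17.3, 20.2 and 17.3 CPM, and 11.8, 11.1 and 9.97 CPM in SN011. Sham and vehicle libraries of these genes reached at most 8.25, 14.6 and 7.76 CPM. DESeq2 called Col4a6 against vehicle (adjusted p = 0.00586), and Col4a6 and Col16a1 against sham (adjusted p = 0.00211 and 0.0425).

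The 3d-SN011 libraries carried more collagen RNA in sum, and much more in replicates 1 and 3. Their summed collagen level was 1839, 803 and 2642 CPM, or 1761 ± 922 CPM (SD, n = 3), and each library lay above all 9 others, which spanned 566 to 788 CPM. The fibrillar collagens alone summed to 716, 218 and 1101 CPM against 112 to 171 CPM elsewhere, and the basement membrane collagens to 575, 172 and 907 CPM against 111 to 156 CPM. In these sums replicate 2 was above the other groups, in the total only just, but far below replicates 1 and 3. The 24 other collagens summed to 547, 413 and 634 CPM against 296 to 470 CPM, with replicate 2 inside that range.

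Against vehicle, 25 of the 41 collagens rose, 6 fell and 10 were not called in 3d-SN011, where 28.9% of all genes were called higher and 28.2% lower. The median log2 fold change was 1.17 over the collagens and 0.01 over all genes. By group, 9 of 11 fibrillar collagens rose and 0 fell, 6 of 8 basement membrane collagens rose and 1 fell, and 10 of 22 others rose and 5 fell. Against sham, 25 rose and 4 fell, with a background of 29.8% higher and 27.9% lower and a median of 1.42. Against SN011, 20 rose and 5 fell, with a background of 23.6% higher and 22.9% lower and a median of 1.08. These 3 comparisons share the 3d-SN011 libraries. The counts against vehicle ranged from 26 to 31 called collagens when each of the 12 libraries was left out in turn.

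**Figure D1:**
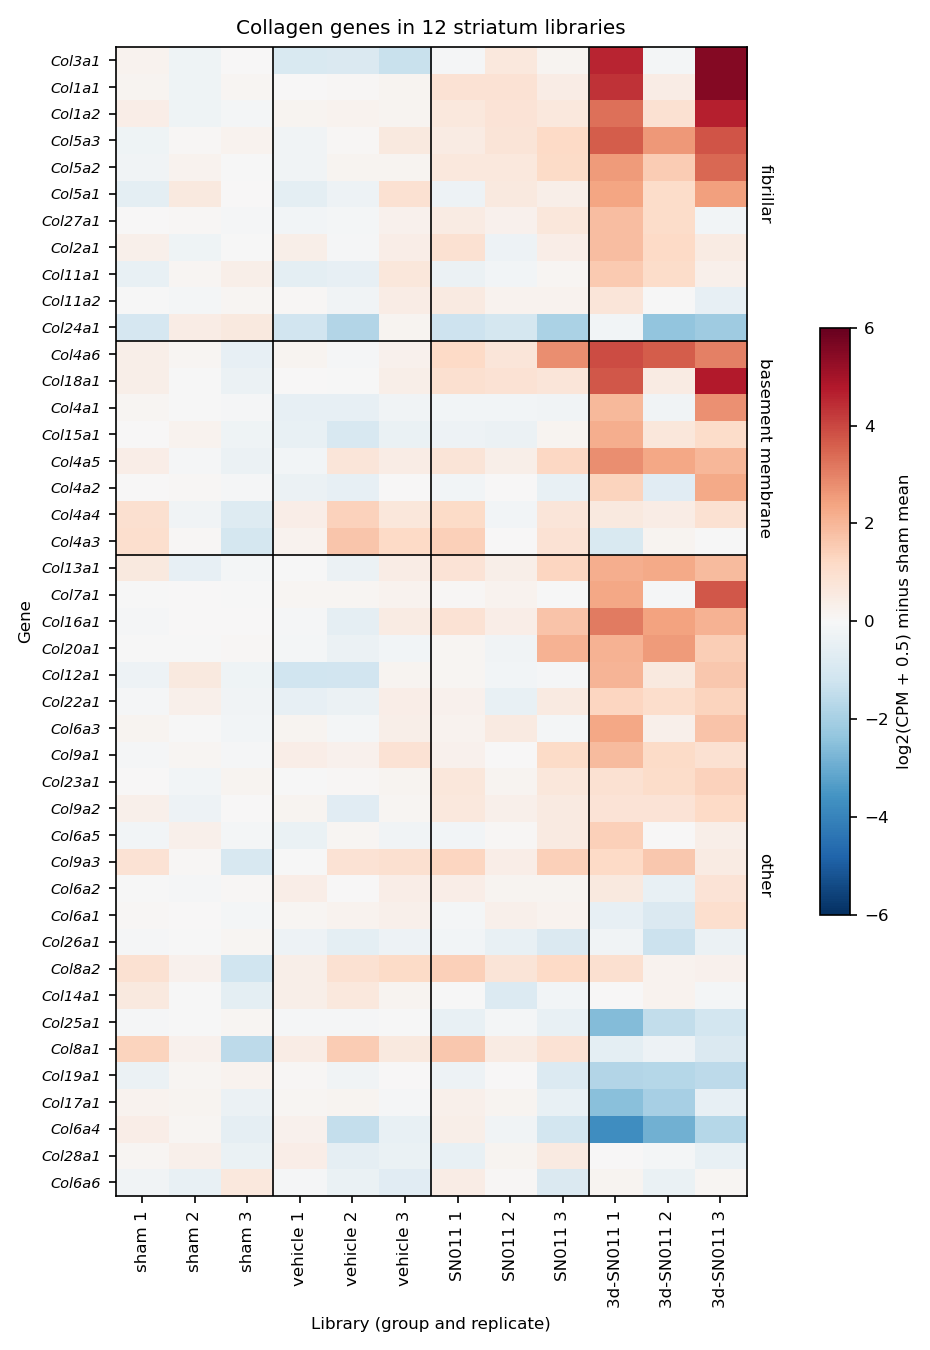
Level of each of the 43 collagens (vertical axis, grouped by class) in each of the 12 libraries (horizontal axis), as log2(CPM + 0.5) minus the mean of the sham libraries, red above and blue below sham. Most fibrillar and basement membrane genes are red in the columns of 3d-SN011 replicates 1 and 3. Of the exceptions, Col24a1 is near sham in replicate 1 and blue in replicate 3, Col11a2 and Col4a3 are pale or blue, and Col27a1 is pale in replicate 3. In the column of replicate 2, Col1a1, Col3a1, Col18a1, Col4a1 and Col7a1 are near sham and Col4a2 is below it.

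Among the fibrillar collagens the largest rises were in the chains of types III and I. Col3a1 (ENSMUSG00000026043, GRCm38 chr1:45311538-45349706, plus strand), which forms the fine fibres of vessel walls and of early scar, read 106, 3.61 and 203 CPM in 3d-SN011. It read 1.94, 1.95 and 1.29 CPM in vehicle, 4.67, 3.33 and 4.17 CPM in sham and 3.81, 6.43 and 4.49 CPM in SN011. Replicates 1 and 3 were far above every other library, and replicate 2 lay within the range of sham and below every SN011 library. The log2 fold change of Col3a1 against vehicle was 5.91 ± 1.02 (SE; adjusted p = 0.000337, edgeR's quasi-likelihood test). Its vehicle libraries were lower than sham, so against sham the log2 fold change was 4.68.

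Col1a1 (ENSMUSG00000001506, chr11:94936224-94953042, plus strand), the α1 chain of type I collagen, read 160.4, 10.3 and 362 CPM in 3d-SN011. The other 9 libraries ranged from 6.00 to 13.9 CPM. Replicate 2 again lay inside the range of the other groups, while replicates 1 and 3 did not overlap them. Its log2 fold change against vehicle was 4.51 ± 0.84 (SE; adjusted p = 0.000583, edgeR's quasi-likelihood test). Col1a2 (chr6:4504814-4541544, plus strand), the α2 chain, read 114.8, 21.2 and 291 CPM against 9.09 to 20.2 CPM in the other 9 libraries. It rose by a log2 fold change of 3.49 ± 0.64 (SE; adjusted p = 0.000536, edgeR's quasi-likelihood test), with replicate 2 only just above the highest SN011 library.

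The type V chains, which nucleate and thin type I fibrils, were above the other 9 libraries in replicate 2 as well, by a wide margin in Col5a3 only. Col5a3, singled out after its values were seen, read 64.7, 31.6 and 72.1 CPM in 3d-SN011 and 3.88 to 11.6 CPM in the other 9 libraries. All 3 of its 3d-SN011 libraries were above all others by a wide margin. Its log2 fold change against vehicle was 3.35 ± 0.33 (SE), with the smallest adjusted p of any collagen, 1.51e-05, in edgeR's quasi-likelihood test. Col5a2 and Col5a1 rose by log2 fold changes of 2.75 and 1.99, and the 3 libraries of each lay above the other 9. Their replicate 2 read 15.8 and 16.1 CPM, against at most 11.8 and 14.1 CPM in the other 9 libraries. Col27a1, Col2a1 and Col11a1 (types XXVII, II and XI, known best from cartilage) rose by 1.17, 1.16 and 1.12 on the log2 scale. Without 3d-SN011 replicate 1 none of these 3 was called, at adjusted p of 0.105, 0.139 and 0.112 in edgeR's quasi-likelihood test.

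Fibrillar genes that were not called in any comparison were Col11a2 and Col24a1. Col11a2, a type XI chain, read 90.4, 53.7 and 37.8 CPM in 3d-SN011 and 46.9 to 78.1 CPM in the others, with a log2 fold change of 0.04 ± 0.26 (SE) against vehicle. Col24a1, a minor fibrillar collagen, read 5.27, 0.741 and 0.970 CPM in 3d-SN011 and 1.26 to 9.25 CPM in the others. Both overlapped the other groups, and Col24a1 fell only when 3d-SN011 replicate 1 was left out (log2 fold change -2.03, adjusted p = 0.0302, edgeR's quasi-likelihood test).

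**Figure D2:**
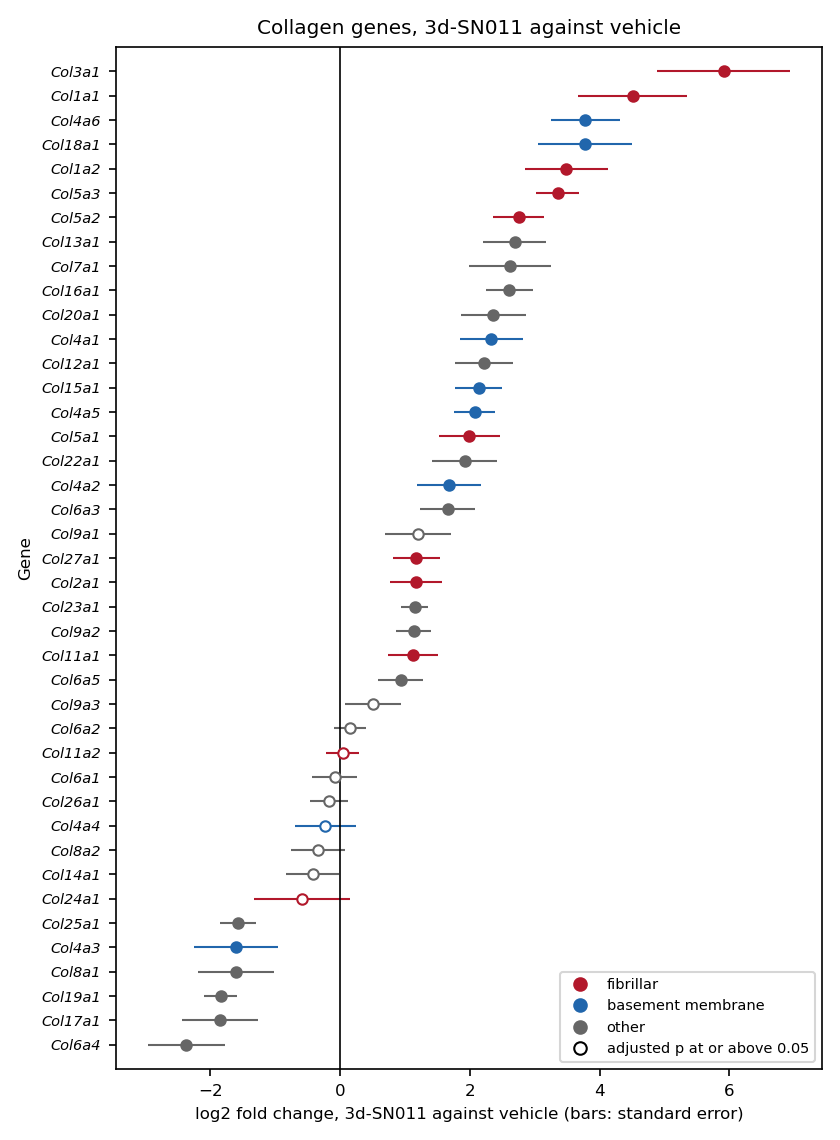
Log2 fold change of each of the 41 tested collagens (vertical axis) in 3d-SN011 against vehicle (horizontal axis), with bars of 1 standard error, coloured by class and filled where the adjusted p was under 0.05. Values run from -2.37 for Col6a4 to 5.91 for Col3a1, and no fibrillar collagen is filled to the left of 0.

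The basement membrane collagens split by chain. Col4a1 (ENSMUSG00000031502, chr8:11198423-11312826, minus strand) and Col4a2 (chr8:11312805-11449287, plus strand), the α1 and α2 chains of the network found in nearly every vessel wall, start 21 bases apart on opposite strands and share a promoter region. Col4a1 read 220.4, 48.8 and 378 CPM in 3d-SN011 against 39.6 to 60.3 CPM in the other 9 libraries. Col4a2 read 150.3, 36.3 and 285 CPM against 41.0 to 61.8 CPM. In both genes replicates 1 and 3 were high, replicate 2 of Col4a1 lay inside the range of the others and replicate 2 of Col4a2 lay below it. The log2 fold changes against vehicle were 2.33 ± 0.48 and 1.68 ± 0.49 (SE), with adjusted p of 0.00124 and 0.0104 in edgeR's quasi-likelihood test. Without 3d-SN011 replicate 3 the change of Col4a2 was 0.92 and did not pass (adjusted p = 0.0653, edgeR's quasi-likelihood test). The 22 exon bases that the pair share are 0.295% of the exons of Col4a1, and with the strand setting of the counting not given, reads there cannot be assigned to one gene.

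The RefSeq promoter table (GRCm38.p6) covers 250 bases before to 50 after a gene's start and held 34 of the 43 members. The window of Col4a2, chr8:11312555-11312854 on the plus strand, overlaps that of Col4a1 by 78 bases. It is printed because both genes of the pair were called higher than vehicle, though their ratio shifted, as given below. CCAAT and GGGCGG matches on either strand are in capitals.
Col4a2: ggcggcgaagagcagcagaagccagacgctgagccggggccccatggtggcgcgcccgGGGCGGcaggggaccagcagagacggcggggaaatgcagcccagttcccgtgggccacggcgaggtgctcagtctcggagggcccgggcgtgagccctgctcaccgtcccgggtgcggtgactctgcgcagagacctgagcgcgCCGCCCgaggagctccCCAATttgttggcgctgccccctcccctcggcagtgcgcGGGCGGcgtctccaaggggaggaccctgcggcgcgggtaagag

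The Col4a2 window held 3 GC boxes (GGGCGG) and 1 CCAAT box and no TATAAA. The window of Col3a1, chr1:45311288-45311587 on the plus strand, is printed for contrast, since its transcript had the largest rise; its only match, TATAAA, is in capitals.
Col3a1: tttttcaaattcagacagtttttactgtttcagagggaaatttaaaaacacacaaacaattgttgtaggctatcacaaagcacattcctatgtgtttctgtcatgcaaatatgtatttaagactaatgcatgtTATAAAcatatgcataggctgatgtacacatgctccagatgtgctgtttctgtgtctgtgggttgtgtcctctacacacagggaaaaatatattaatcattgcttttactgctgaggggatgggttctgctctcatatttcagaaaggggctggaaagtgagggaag

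Guanine and cytosine made up 73.7% of the Col4a2 window and 37.7% of the Col3a1 window. GGGCGG was present in 22 of 34 collagen windows (64.7%) and in 35.6% of all 32817 windows, CCAAT in 12 of 34 (35.3%) and in 37.4% of all, and TATAAA in 4 of 34 (11.8%) and in 13.6% of all, on either strand. These are matches of letters and say nothing of factor binding here.

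The next type IV pair, Col4a5 and Col4a6 (chrX, starts 1309 bases apart on opposite strands), rose in all 3 libraries. Col4a6 read 30.4, 25.0 and 15.8 CPM in 3d-SN011 against 0.968 to 13.5 CPM in the other 9 libraries. Col4a5, singled out after its values were seen, read 47.6, 34.3 and 27.8 CPM against 4.96 to 16.3 CPM. Neither gene overlapped the other groups, and the highest of the other libraries was SN011 replicate 3 in both. Their log2 fold changes against vehicle were 3.78 ± 0.53 and 2.07 ± 0.31 (SE), with adjusted p of 7.51e-05 and 0.00013 in edgeR's quasi-likelihood test.

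Col4a3 and Col4a4, the third pair, code for chains best known from the kidney glomerulus, and they start 72 bases apart. Col4a3 read 0.665, 1.93 and 1.62 CPM in 3d-SN011 against 2.00, 6.38 and 4.50 CPM in vehicle and 3.88, 1.76 and 0.544 CPM in sham. Col4a4 read 4.55, 4.15 and 5.92 CPM in 3d-SN011 against 3.94, 8.26 and 4.96 CPM in vehicle. The groups overlapped in Col4a4, and 3d-SN011 and sham overlapped in Col4a3. Col4a3 was called lower than vehicle (log2 fold change -1.61 ± 0.65, SE; adjusted p = 0.0489, edgeR's quasi-likelihood test) but lost the call when any single 3d-SN011 library was left out, at adjusted p of 0.0531 to 0.145. Opposite-strand exons of C430014B12Rik cover 5.65% of the Col4a3 exons. Both genes varied within sham, as did the choroid plexus and ependyma markers described with Col8a1.

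Col18a1 (chr10:77052178-77166548, minus strand), whose C-terminal fragment is endostatin, read 84.2, 8.60 and 175 CPM in 3d-SN011 and 4.60 to 11.8 CPM in the others. Replicate 2 was inside the range of the other groups. The gene rose by a log2 fold change of 3.77 ± 0.73 (SE; adjusted p = 0.00073, edgeR's quasi-likelihood test). Col15a1, the related multiplexin of muscle and vessel basement membrane, rose by 2.13, and all 3 of its libraries lay above the other 9.

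The other collagens moved in both directions. Col13a1, a transmembrane collagen of cell adhesion sites, read 4.55, 5.04 and 3.72 CPM in 3d-SN011 and 0.303 to 2.30 CPM in the other 9 libraries. Col16a1 read 152, 90.8 and 72.7 CPM against 11.6 to 57.3 CPM. Both were above all other libraries in all 3 replicates, and their log2 fold changes against vehicle were 2.69 ± 0.49 and 2.61 ± 0.36 (SE), with adjusted p of 0.000474 and 7.51e-05 in edgeR's quasi-likelihood test. Col7a1, the anchoring fibril collagen of skin, read 29.8, 5.19 and 78.2 CPM against a narrow 5.46 to 6.50 CPM elsewhere. Its replicate 2 fell just below that range while replicates 1 and 3 were far above it, and the log2 fold change was 2.62 ± 0.63 (SE; adjusted p = 0.00337, edgeR's quasi-likelihood test).

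Fibril-associated and related chains with rises against vehicle were Col20a1 (2.36 on the log2 scale), Col12a1 (2.22), Col22a1 (1.92) and Col9a2 (1.13), together with the transmembrane Col23a1 (1.15). Col9a1 did not pass against vehicle (log2 fold change 1.19; adjusted p = 0.0607, edgeR's quasi-likelihood test). In the beaded-filament family of type VI, Col6a3 rose by 1.66 on the log2 scale, while Col6a1 and Col6a2 were not called. Col6a1 read 89.6, 67.4 and 250.2 CPM in 3d-SN011 against 114.0 to 153.7 CPM in the other 9 libraries. Its replicates 1 and 2 lay below and replicate 3 above every other library, so that without replicate 3 it was called lower than vehicle at a log2 fold change of -0.88 (adjusted p = 0.00041, edgeR's quasi-likelihood test). Col6a2 read 30.4, 14.9 and 36.4 CPM against 19.1 to 27.1 CPM, with replicate 2 below and the others above the range. Without replicate 2 it was called higher than vehicle at a log2 fold change of 0.44 (adjusted p = 0.0258, edgeR's quasi-likelihood test). Col6a5 was called higher by 0.93, a call lost without 3d-SN011 replicate 1 (log2 fold change 0.38).

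Members that fell against vehicle and had every 3d-SN011 library below the other 9 numbered 4: Col6a4, Col17a1, Col19a1 and Col25a1. Among all tested genes 22.8% had that arrangement. Col6a4, a type VI chain, read 0.870, 1.93 and 4.96 CPM in 3d-SN011 against 6.25 to 23.3 CPM, a log2 fold change of -2.37 ± 0.59 (SE; adjusted p = 0.00418, edgeR's quasi-likelihood test). Col19a1, a fibril-associated chain known from subsets of brain neurons, read 2.10, 2.13 and 2.42 CPM against 4.44 to 9.68 CPM, a log2 fold change of -1.84 ± 0.25 (SE; adjusted p = 6.86e-05, edgeR's quasi-likelihood test). The 3 libraries of Col19a1 lay closer together than those of any other tested collagen.

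Col25a1, a transmembrane collagen made by neurons and singled out after its values were seen, read 6.81, 15.6 and 20.2 CPM in 3d-SN011. The other libraries read 31.6 to 46.9 CPM, with the SN011 libraries at 31.6, 40.2 and 32.2 CPM and vehicle at 42.4, 42.4 and 42.6 CPM. The order of its 3d-SN011 replicates was also that of Col6a4, Col17a1 and Col19a1. Striatal projection neuron markers had the same order, at 304, 1229 and 1922 CPM, and their part in these changes was not tested. The log2 fold change of Col25a1 was -1.58 ± 0.28 (SE; adjusted p = 0.000358, edgeR's quasi-likelihood test). Col17a1, a hemidesmosome collagen, read 0.205, 0.494 and 2.37 CPM against 2.47 to 4.45 CPM elsewhere. Its log2 fold change was -1.85, and -3.36 when replicate 3, which lay only just below the other groups, was left out. Without replicate 2 its adjusted p was 0.059 in edgeR's quasi-likelihood test.

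Col8a1 and Col8a2, short-chain collagens that form hexagonal lattices in endothelial and corneal matrix, varied widely within sham. Col8a1 read 16.9, 7.70 and 1.81 CPM in sham, 8.87, 19.1 and 9.85 CPM in vehicle, and 4.09, 5.04 and 3.23 CPM in 3d-SN011. Col8a2 read 16.98, 10.8 and 3.63 CPM in sham, 11.5, 17.1 and 20.3 CPM in vehicle, and 17.5, 10.5 and 10.6 CPM in 3d-SN011. In SN011, Col8a1 read 20.8, 9.36 and 12.1 CPM and Col8a2 read 24.7, 15.4 and 20.8 CPM. Sham replicate 3 was the lowest library for both genes. The 10 choroid plexus and ependyma markers summed to 2626, 1276 and 133 CPM in sham, 1401, 2850 and 2241 CPM in vehicle, 3137, 1122 and 2632 CPM in SN011, and 225, 868 and 115 CPM in 3d-SN011. Of these 10, 8 were lower and 1 higher in 3d-SN011 than in vehicle, and none was at 0 in any library. Col8a1 fell against vehicle by 1.61 on the log2 scale (adjusted p = 0.0328, edgeR's quasi-likelihood test) but not against sham (adjusted p = 0.129), and Col8a2 was not called. Against SN011 Col8a1 was also called lower (log2 fold change -1.77, adjusted p = 0.026, edgeR's quasi-likelihood test). The call of Col8a1 against vehicle was lost without 3d-SN011 replicate 1 or 3, at adjusted p of 0.0726 and 0.0816 in edgeR's quasi-likelihood test. Its call against SN011 was also lost without either of them, or without SN011 replicate 1. The part of such tissue in Col8a1, Col8a2, Col4a3, Col4a4 and Col9a3 was not tested.

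Other members without a call in any comparison were Col9a3, Col14a1 and Col26a1. Col9a3, a fibril-associated chain, read 55.6, 73.9 and 33.9 CPM in 3d-SN011 and 12.2 to 65.4 CPM elsewhere, and opposite-strand exons of Tcfl5 cover 6.07% of its exons. Its sham libraries, at 44.6, 25.5 and 12.2 CPM, had the order of the choroid plexus and ependyma markers. Col14a1 read 1.59, 1.83 and 1.35 CPM against 0.643 to 2.60 CPM, and Col26a1 read 5.89, 2.57 and 5.22 CPM against 3.51 to 7.50 CPM. The ranges overlapped in all 3 genes. Col28a1 and Col6a6 were below the filter, at 0.162 to 0.409 and 0.198 to 0.512 CPM in 3d-SN011.

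The 3d-SN011 replicates differed from each other in a gene-dependent way. In 12 of the 41 collagens all 3 libraries lay above the other 9 (4 fibrillar, 3 basement membrane and 5 other), an arrangement found in 21.4% of all tested genes. In 9 collagens replicates 1 and 3 lay above the other 9 and replicate 2 did not, which was found in 4.5% of all tested genes. Those 9 were Col1a1, Col3a1, Col4a1, Col4a2, Col18a1, Col6a2, Col6a3, Col7a1 and Col12a1. The highest of the 3 libraries exceeded the lowest by 56.4 times in Col3a1, 35.0 times in Col1a1 and 20.4 times in Col18a1. In Col4a6 and Col5a3 the same ratio was 1.92 and 2.28.

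Col10a1, the hypertrophic cartilage collagen just outside the rule, had the same arrangement, at 14.7, 0 and 63.9 CPM in 3d-SN011, where 3 counts in replicate 2 would be 0.148 CPM, and 0 to 0.351 CPM in the other 9 libraries. Marker lists moved with it in part. The 12 markers of perivascular and meningeal fibroblasts, which held no collagen, summed to 164, 130 and 221 CPM in 3d-SN011 and 79.0 to 104 CPM in the others. Among the 10 of these markers that were tested 6 were higher in 3d-SN011 than in vehicle, and Dpt, Slc47a1 and Dpep1 were at 0 in at least 1 library. Much of the sum was Pdgfra, which the oligodendrocyte lineage list also holds, at 78.3, 76.3 and 102 CPM; without it, a choice made after its values were seen, the sums were 85.5, 53.2 and 119 CPM against 19.4 to 37.8 CPM. The markers did not share 1 pattern over the 3d-SN011 libraries. Replicate 2 was the lowest of the 3 in 7 of the 12, such as Lum, a fibril-binding proteoglycan, at 9.16, 1.33 and 18.7 CPM. It was the highest in 3, such as Islr at 27.1, 30.3 and 18.6 CPM. Pericyte markers summed to 504, 436 and 578 CPM against 298 to 387 CPM, with 8 of 10 higher, and endothelial markers to 608, 423 and 605 CPM against 339 to 491 CPM, with 8 of 11 higher. Smooth muscle markers, with 2 of 5 higher and Cnn1 at 0 in at least 1 library, summed to 27.6, 14.8 and 24.2 CPM against 13.5 to 25.6 CPM. In each of these 4 lists replicate 2 had the lowest sum of the 3 libraries, and their part in the collagen pattern was not tested.

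**Figure D3:**
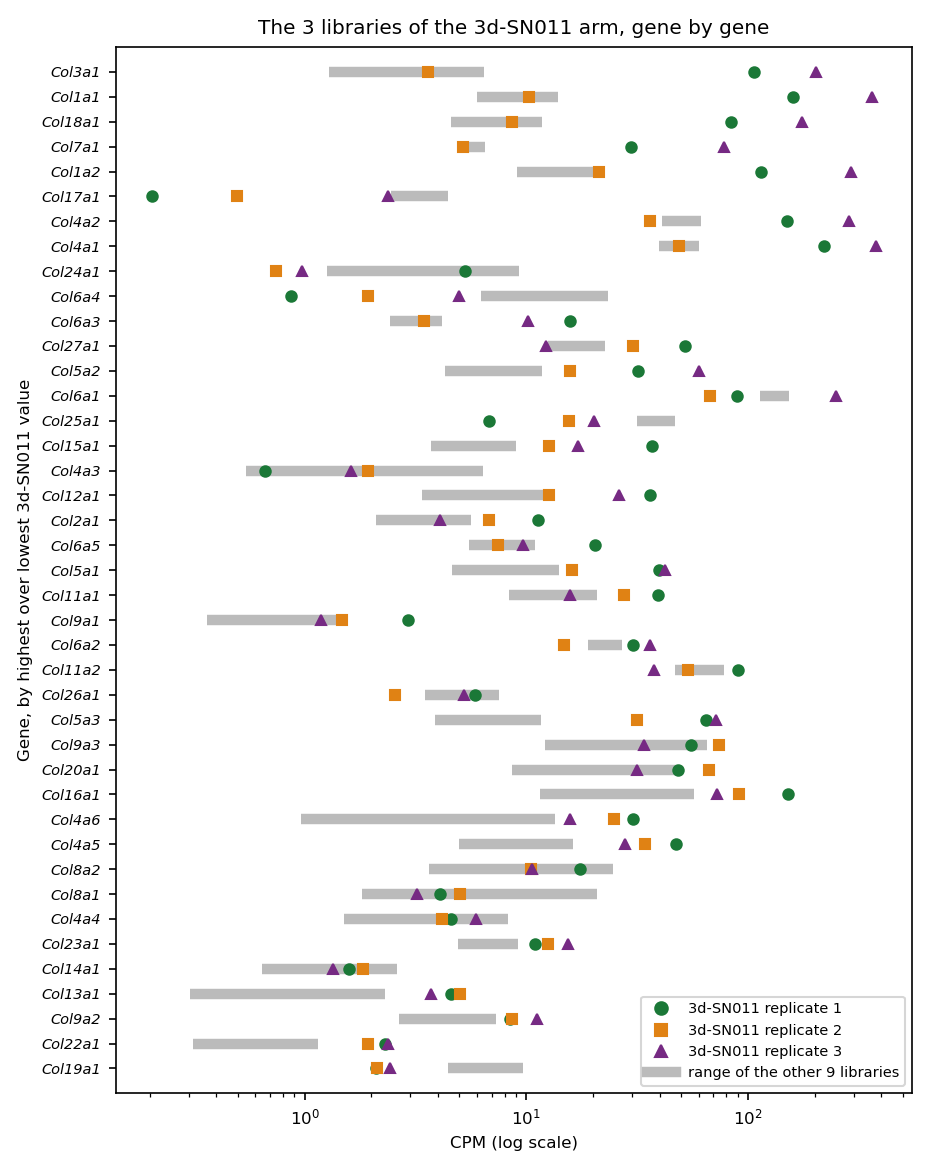
CPM on a log axis (horizontal) of each tested collagen (vertical) in the 3 libraries of the 3d-SN011 group, with a grey bar for the range of the other 9 libraries. Genes are ordered by the ratio of the highest to the lowest 3d-SN011 library, from 56.4 in Col3a1 at the top, where replicate 2 sits on the grey bar, to Col19a1 at the bottom, where the 3 points lie together below it.

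Single 3d-SN011 libraries moved the size of several changes. Without replicate 3 the log2 fold change against vehicle was 4.98 for Col3a1, 3.45 for Col1a1, 2.42 for Col1a2, 2.83 for Col18a1, 1.65 for Col4a1, 1.51 for Col7a1 and 2.16 for Col5a2, and each stayed called. It was -3.25 for Col6a4, also called. The total of called collagens against vehicle was 31 with all libraries, of which 25, 29 and 28 were kept without 3d-SN011 replicates 1, 2 and 3.

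Of 10 ratios between collagen chains, 4 had all 3 3d-SN011 libraries above the other 9, 1 had all 3 below, and 5 had neither. The CPM ratio of Col1a1 to Col1a2, which assemble as a pair of α1 chains with 1 α2 chain, was 0.564 to 0.80 in the other 9 libraries and 1.40, 0.487 and 1.24 in 3d-SN011. Replicates 1 and 3 lay above and replicate 2 below every other library. For Col4a1 to Col4a2 the ratio was 1.47, 1.34 and 1.33 in 3d-SN011 against 0.808 to 1.14 elsewhere, so that all 3 libraries were higher, replicate 2 included. Col5a3 to Col5a1 gave 1.63, 1.96 and 1.71 against 0.451 to 1.23, again with all 3 higher. Col6a3 to Col6a2 gave 0.520, 0.233 and 0.280 against 0.107 to 0.181, and Col6a3 to Col6a1 was likewise above. Other pairs overlapped: Col4a6 to Col4a5 gave 0.639, 0.729 and 0.570, inside the 0.126 to 0.829 of the other libraries, whose highest value was that of SN011 replicate 3 and the next 0.365, and Col6a1 to Col6a2 gave 2.95, 4.53 and 6.88 against 4.25 to 6.98, with replicate 1 alone outside. Col8a1 to Col8a2 gave 0.235, 0.481 and 0.305, just below or below the 0.486 to 1.11 elsewhere. Ratios were described and not tested.

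**Figure D4:**
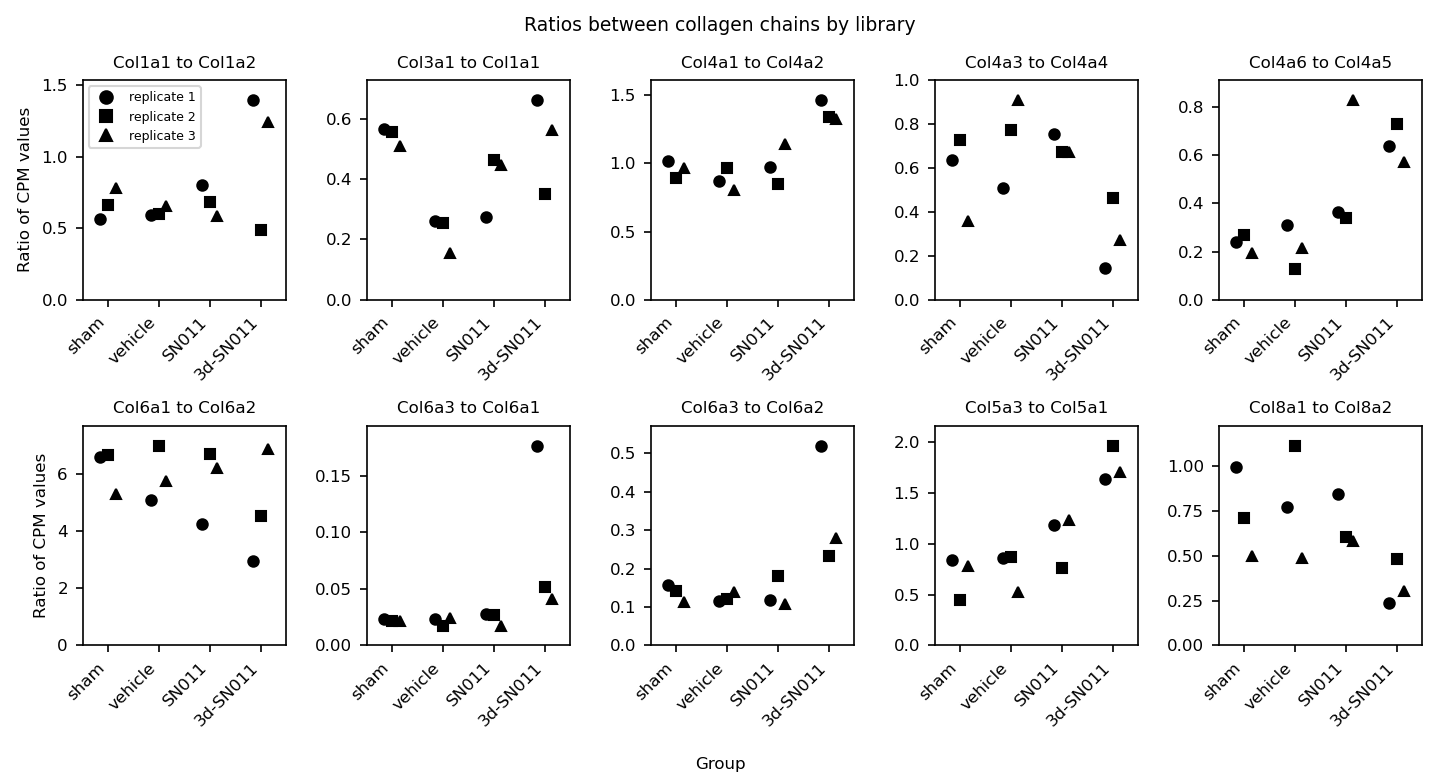
Ratio of CPM values for 10 pairs of collagen chains (vertical axis, from 0) in each library of the 4 groups (horizontal axis), with 1 symbol per replicate. The 3d-SN011 points lie above all others for Col4a1 to Col4a2, Col5a3 to Col5a1, Col6a3 to Col6a1 and Col6a3 to Col6a2 and below all others for Col8a1 to Col8a2, while in Col1a1 to Col1a2 the square of replicate 2 is the lowest of all at 0.487 and the points of Col4a6 to Col4a5 lie inside the range of the other groups.

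Returning to the miR-29 matches, the median log2 fold change of 3d-SN011 against vehicle was 1.80 over the 24 collagens with a match and 0.51 over the 17 without. Over all genes it was -0.03 with and 0.08 without a match. Of the 24 collagens with a match 17 rose and 2 fell, and of the 17 without 8 rose and 4 fell. Of all genes, 620 of 2058 with a match rose and 685 fell, and 4265 of 12956 without rose and 3629 fell. The classes differ in both quantities. The medians with and without a match were 1.99 and 1.76 in fibrillar, 2.07 and 3.77 in basement membrane and 1.42 and 0.21 in other collagens. Without a match were 2 fibrillar collagens, Col1a2 (3.49) and Col11a2 (0.04), and 1 of the basement membrane, Col18a1 (3.77). The part of miR-29 in these changes was not tested.

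Genes that make, bind and surround collagen were counted in 4 lists. Over all genes, 28.9% were called higher and 28.2% lower in 3d-SN011 than in vehicle, with a median log2 fold change of 0.01. Of 34 collagen maturation genes 22 rose and 2 fell in 3d-SN011 against vehicle, with a median log2 fold change of 1.16. Plod1, a lysyl hydroxylase, read 153, 107.0 and 159 CPM in 3d-SN011 against 22.7 to 32.6 CPM in vehicle, and Fkbp10, a procollagen chaperone, read 25.6, 26.0 and 33.2 CPM against 3.97 to 6.05 CPM. In both genes all 3 libraries lay far above vehicle, with no overlap. Their log2 fold changes were 2.31 and 2.56, while Tll1, a procollagen C-proteinase, and P4ha2, a prolyl hydroxylase subunit, fell by 1.62 and 0.44.

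Against the same background of 28.9% higher and 28.2% lower, 9 of 11 tested collagen receptors rose and 1 fell, with a median of 1.60. Itgb1, the shared β chain of the collagen-binding integrins, rose by a log2 fold change of 1.44 and Adgrg1, an adhesion receptor that binds type III collagen, by 1.39, while Itga11 fell by 1.02. Among 15 basement membrane partners 10 rose and 1 fell (median 1.07), with the laminin chains Lamb2 and Lama2 higher by 1.63 and 1.01 and Lamb3 lower by 1.06. Of 19 tested fibril-associated matrix genes 14 rose and 0 fell (median 2.19), led by the tenascin Tnxb at 3.26 and the proteoglycan Bgn at 3.03. Bgn read 133, 47.2 and 219 CPM in 3d-SN011 and 13.2 to 28.5 CPM elsewhere, so that its replicate 2 was lowest of the 3 and still above every other group.

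Nid1 and Lox were singled out after their values were seen. Nid1, which links laminin to type IV collagen, read 66.9, 14.2 and 98.8 CPM against 11.4 to 16.1 CPM elsewhere, with replicate 2 inside that range as in Col4a1. Lox, the crosslinking oxidase, read 17.2, 3.76 and 62.4 CPM against 0.322 to 1.97 CPM, with all 3 above. In SN011 against vehicle 0 genes of any of the 4 lists were called, with medians of 0.27 for maturation genes, 0.61 for receptors, 0.12 for basement membrane partners and 0.35 for fibril-associated genes. At an unadjusted p under 0.05 there were 9 of 34, 6 of 11, 1 of 15 and 4 of 19 genes in these lists, against 11.1% of all genes. DESeq2 called 3, 0, 0 and 1 of them, and 446 of all genes.

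Between the SN-011 arms, the rises in 3d-SN011 over SN011 were led by Col3a1 at 4.41 ± 0.91, Col1a1 at 3.82 ± 0.80 and Col18a1 at 3.02 ± 0.69 (log2 fold change ± SE). These rises came from 3d-SN011 replicates 1 and 3. Replicate 2 lay below every SN011 library in Col3a1 (3.61 against 3.81 to 6.43 CPM) and Col18a1 (8.60 against 9.97 to 11.8 CPM). In Col1a1 it lay among them (10.3 against 10.1 to 13.9 CPM). Col4a6, already above vehicle in all 3 SN011 libraries, was higher by a further 1.78 ± 0.47 (adjusted p = 0.00775, edgeR's quasi-likelihood test). Col20a1, at 48.4, 66.6 and 31.5 CPM in 3d-SN011, was overlapped by SN011 replicate 3 at 47.9 CPM and did not pass between the arms (log2 fold change 1.08; adjusted p = 0.0781, edgeR's quasi-likelihood test). The arms differ by the title prefix alone, and what else separated them is not given in the sources used here.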

How the data were processed

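Per the labels' protocols, Trizol was used to extract striatal RNA, and libraries of polyA+ RNA were read from both ends. The submitters' processing notes name HISAT2, featureCounts and mm10, without a version, gene annotation or strand setting. Deposited by the authors were raw, whole-number counts of reads for each Ensembl gene, which their sums show to be unscaled. Symbols, exon lengths and GRCm38 positions came from GENCODE M21.

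Counts were fitted in R 4.3.3 with edgeR 4.0.16: filterByExpr (by group, minimum 10 counts) left 18537 genes, scaling was by TMM, and all 12 libraries entered one quasi-likelihood fit (glmQLFit, glmQLFTest) with group as the only term. P-values were Benjamini-Hochberg adjusted over all genes tested and called under 0.05; standard errors are the absolute log2 fold change over the square root of F. The script was tested on simulated data. Levels are TMM-scaled CPM.

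Members, gene lists and markers were chosen with earlier results of these data known. Members named with full values were, in each class, the 3 highest in mean CPM, the 3 largest called rises and falls against vehicle, those called in no comparison and those starting within 1000 bases of another member; from each pathway list the 2 called rises and 2 called falls of smallest adjusted p were named. Alternatives were RLE scaling, DESeq2 1.42.0, no filter, the 6 compared libraries alone, a replicate block, and leaving out each library. Summed markers of neurons in general, astrocytes and the oligodendrocyte lineage were 476 to 1013, 7066 to 11369 and 12300 to 18835 CPM in 3d-SN011, and 1593 to 2925, 932 to 5439 and 6643 to 9694 CPM elsewhere.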

Additional observations from a re-analysis of the deposited data

How the results depend on the processing

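The counts of called collagens in the comparisons with 3d-SN011 stayed within 1.5 times under every alternative run, and RLE scaling, DESeq2 and no filter kept all 31, 29 and 25 calls against vehicle, sham and SN011. Fitting the 6 libraries alone gave 27, 26 and 21. Leaving out single libraries gave 26 to 31, 26 to 31 and 20 to 28. The pathway lists also stayed within 1.5 times. In SN011 against vehicle DESeq2 called 1 collagen and the fit with no filter 3, in SN011 against sham both called 2, and single left-out libraries gave 0 to 1 and 0 to 2, the highest without SN011 replicate 2. Vehicle against sham stayed at 0 collagens. No named collagen reversed its direction where it was called.

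Over all genes, SN011 against vehicle moved from 3 calls to 446 with DESeq2, 601 with no filter, 5 with the 6 libraries alone and 19 with the replicate block, and to 513 without SN011 replicate 2. SN011 against sham moved from 21 to 624, 775 and 7, and to 694 without SN011 replicate 2; vehicle against sham moved from 0 to 3, 5 and 16. The cause was not tested. With the replicate block the collagens called were 29 against vehicle, 28 against sham and 26 against SN011. Same-numbered libraries correlated at -0.293 to 0.143, and 3 of 18 matched their own number best, so the numbers were not taken as pairs. With 3 libraries a group, the 3d-SN011 changes of Col1a1, Col3a1, Col4a1, Col4a2, Col7a1 and Col18a1 rest on 2 libraries. Col6a3 and Col12a1 also had replicate 2 inside the range of the other groups.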
